A study of Homo sapiens with 18 samples.

Results

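ATF4, CHOP (gene symbol DDIT3) and 8 partners and targets that carry their signal, namely ATF3, CEBPB, CEBPG, TRIB3, NUPR1, PPP1R15A, CHAC1 and SESN2, were followed in libraries all labelled as A1847 cells, a high-grade serous ovarian cancer line. These 10 genes were taken by symbol from the 57736 Ensembl genes of the count table, each had 1 row, and all 10 passed the filter on low counts that left 17317 genes for testing. The study asked how CARM1, an arginine methyltransferase that acts as a transcriptional coactivator, and XBP1, the factor spliced by IRE1α, shape the response to endoplasmic reticulum (ER) stress. Libraries came from 6 groups of 3: control cells (labelled WT), CARM1 knockout cells (koCARM1) made with a lentiviral CRISPR vector and 1 guide RNA, and XBP1 knockdown cells (shXBP1) made with 1 lentiviral short hairpin, each with vehicle (ctr) or with tunicamycin (TM, 5 μg/ml for 8 h), an inhibitor of N-linked glycosylation that causes ER stress. Whether the knockout cells are a single clone is not given in the sources used here. All levels below are CPM, counts divided by library size after TMM scaling, and fold changes are on the log2 scale from edgeR with the standard error (SE) over 3 libraries per group.

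When the ER sensor PERK or a related kinase phosphorylates the initiation factor eIF2, most translation slows while ATF4 mRNA is translated more efficiently. ATF4 is a bZIP transcription factor that pairs with C/EBP proteins, among them CEBPB and CEBPG, on C/EBP-ATF response elements of its targets, and it drives DDIT3, ATF3, TRIB3, CHAC1 and SESN2. CHOP in turn raises PPP1R15A, also known as GADD34, the phosphatase subunit that removes phosphate from eIF2. This branch is known for both recovery from and death after long ER stress. The libraries report mRNA only, so that phosphorylation and translation were not measured.

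The libraries held 9367462 to 13917212 counts each. CARM1 reached 165, 162 and 160.0 CPM in the 3 control libraries with vehicle and 73.5, 77.7 and 71.6 in the knockout libraries, a log2 difference of -1.17 (SE 0.0523, adjusted p = 1.21e-11), so that 625 to 946 CARM1 counts remained per knockout library with vehicle. XBP1 was lower in the knockdown, with log2 differences of -0.86 under vehicle (SE 0.0859, adjusted p = 2.54e-05) and -1.06 under tunicamycin (SE 0.0538, adjusted p = 5.43e-09). Each gene also differed in the cells where the other was targeted. XBP1 was lower in the untreated knockout (-0.47, SE 0.112, adjusted p = 0.00133) and not called in the treated one (-0.06, adjusted p = 0.244). CARM1 was higher in the knockdown, by 0.22 under vehicle (SE 0.0489, adjusted p = 0.0170) and 0.37 under tunicamycin (SE 0.0523, adjusted p = 1.77e-04). The 6 knockout libraries stood apart from all others. Across the genes tested, log2 CPM of replicates correlated at 0.986 to 0.989, control with knockdown libraries at 0.961 to 0.987, and knockout with the other libraries at 0.730 to 0.775. Of 10 ovarian epithelial markers, 7 had over 3 counts in every knockout library, 4 in every control and 3 in every knockdown library, and their summed CPM was 2265 to 2780 in knockout, 311 to 489 in control and 131 to 215 in knockdown libraries. PAX8, a defining factor of this tumour type, had 465 to 840 counts in knockout libraries and at most 2 in every control and knockdown library, and KRT7 had 3576 to 5166 counts against at most 13. WT1, MUC16 and MSLN also had at most 3 counts in the control and knockdown libraries, and KRT19 and MUC16 in the knockout libraries. Of the 4 stromal markers, COL3A1 had 1582 to 3403 counts in control and knockdown libraries and at most 10 in knockout libraries. COL1A1 went the other way, with 2205 to 6247 counts in knockout, 103 to 259 in control and 54 to 138 in knockdown libraries. PDGFRB and DCN had at most 80 counts in any library. The summed CPM of the 4 was 186 to 501 in knockout, 196 to 250.2 in control and 146 to 208 in knockdown libraries. The 4 immune markers summed to at most 7.23 CPM in any library, and the endothelial markers matched, VWF and CDH5, to at most 0.318. Whether the knockout libraries come from the same cell line as the others was not tested beyond these values. The effect of the knockout, a difference in cell line and any other difference between these cells cannot be told apart, and the knockout is therefore compared with control cells as labelled.

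RefSeq promoter windows of GRCh38.p14, from 250 bases before to 50 bases after a transcript's start, were found for 9 of the 10 genes, in 16 windows, and NUPR1 was not among them. The C/EBP-ATF response element core TGATGNAA, searched on both strands, was present at ATF3, CEBPG and CHAC1, and in 3.62% of all 35116 windows (4.46% of 27305 genes). The cAMP response element TGACGTCA, read by ATF and CREB dimers, was present at PPP1R15A, and in 1.85% of all windows (2.25% of genes). The core of the XBP1 site, TGACGTGG, was in none of the 16 windows and in 0.729% of all windows (0.927% of genes). The 4 matched stretches follow because they carry the letters that ATF and C/EBP factors are known to read. Each is 30 bases on the plus strand, 5′ to 3′, with the match in capitals. In GRCh38.p14, while the counts are on hg19, they lie at chr1:212565205-212565234, chr15:40953251-40953280, chr19:33374060-33374089 and chr19:48872352-48872381 in the order printed, and the CHAC1 match is on the minus strand. The matches begin 191, 209, 42 and 58 bases before the start of the transcript.
ATF3: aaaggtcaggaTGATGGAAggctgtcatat
CHAC1: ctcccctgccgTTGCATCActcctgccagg
CEBPG: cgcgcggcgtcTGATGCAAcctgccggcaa
PPP1R15A: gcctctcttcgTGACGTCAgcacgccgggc

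All 10 genes rose with tunicamycin in control cells, in CARM1 knockout cells and in XBP1 knockdown cells. For none of them did treated and untreated libraries of a genotype overlap, though how many of all genes show no such overlap was not counted. In bulk RNA a change in the share of cells that express a gene and a change in RNA per cell cannot be told apart. Over all 17317 genes, 22.0% were called higher and 19.9% lower in control cells, 20.6% and 18.8% in knockout cells, and 19.2% and 19.0% in knockdown cells (edgeR quasi-likelihood test, Benjamini-Hochberg adjusted p under 0.05). The median log2 change of the 10 genes was 3.99 in control, 2.82 in knockout and 3.91 in knockdown cells, beside a median of 0 over all genes in each genotype. In control cells the changes ran from 1.65 for CEBPG to 7.17 for NUPR1, the last from 4 untreated counts and 6.64 to 8.33 when single libraries were left out (8.33 without untreated control library 3). In knockout cells the change of NUPR1, 3.31, was 2.70 without untreated knockout library 1.

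**Figure D1:**
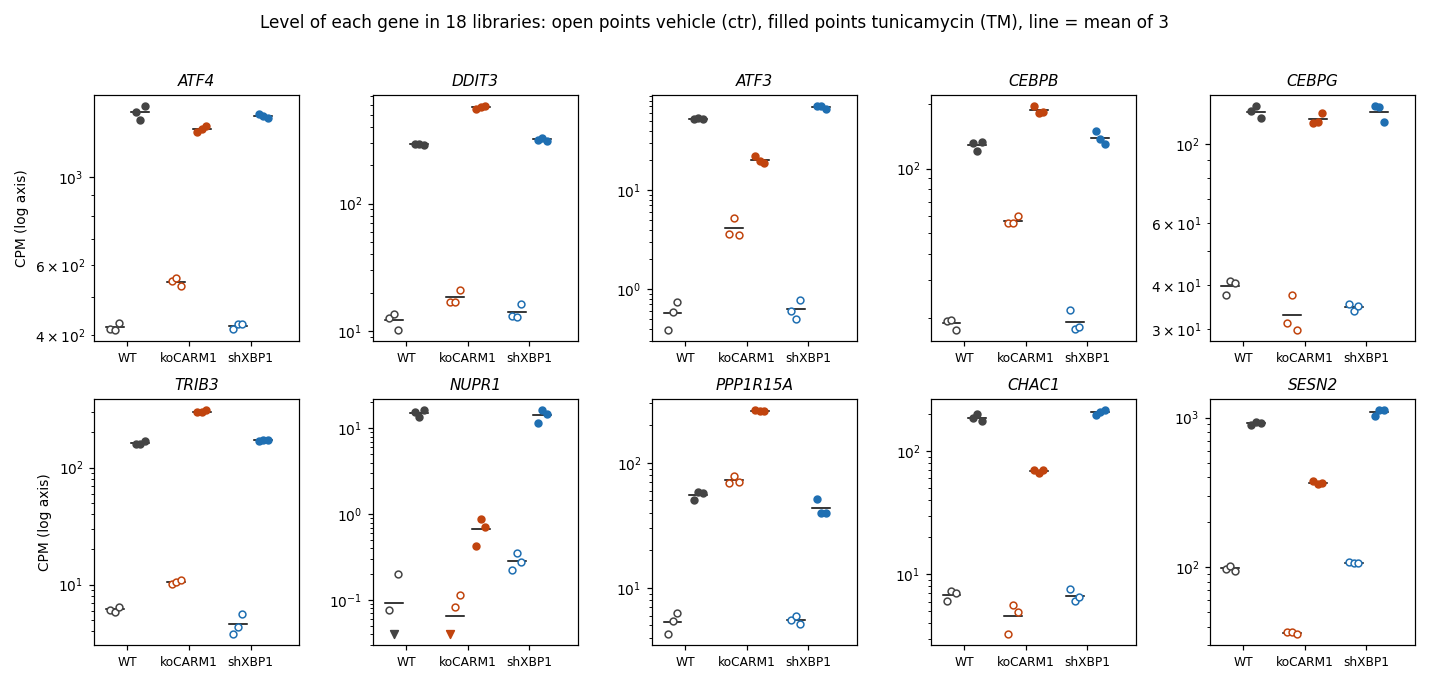
CPM of each of the 10 genes on a log axis in the 18 libraries, grouped as WT, koCARM1 and shXBP1, with vehicle as open and tunicamycin as filled points, a line at the mean of 3 libraries, and a triangle at the foot of the NUPR1 panel for the 2 libraries with 0 counts. Within each genotype filled points lie above open points in every panel, and PPP1R15A in untreated koCARM1 libraries (69.3 to 77.8) lies above treated WT libraries (50.6 to 58.1).

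The transcription factors responded to different extents. ATF4 (chr22:39915700-39918688 in GRCh37) was at 413, 412 and 429.7 CPM in control libraries with vehicle and at 1461, 1392 and 1510.4 with tunicamycin. That is a 3.48-fold higher mean, or a log2 change of 1.81 (SE 0.0509, adjusted p = 9.37e-14). The 3 processed copies of ATF4 with rows in the table, ATF4P1, ATF4P3 and ATF4P4, held 0 to 3 counts per library. DDIT3 (chr12:57910371-57915520, minus strand), the pro-apoptotic bZIP factor CHOP, went from 12.7, 13.6 and 10.2 to 297, 293 and 288 CPM. Its log2 change was 4.61 (SE 0.0841, adjusted p = 6.46e-16), a 24.1-fold higher mean. On the opposite strand the DDIT3 span overlaps the 3′ end of MARS1, the cytosolic methionyl-tRNA synthetase, which rose from 154 ± 5.43 to 424 ± 12.7 CPM (SD, n = 3), and the start of MBD6. The strand setting of the counting is not given in the sources used here, so that reads from DDIT3 and MARS1 in the overlap cannot be told apart. On its own strand the DDIT3 span also holds ENSG00000285133, annotated as protein-coding and without a row in the count table, and MIR616, with 0 counts. CEBPB and NUPR1 also overlap annotated long non-coding RNAs, which were not analysed here.

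ATF3 (chr1:212738676-212794119), a bZIP factor that can repress its targets as a homodimer, was low without stress. It had 5, 8 and 11 counts in the 3 control libraries with vehicle, or 0.387, 0.589 and 0.737 CPM, and 52.5, 53.6 and 52.1 CPM with tunicamycin. The ratio over the summed counts was 91.0 (exact 95% interval for counting error, 61.0 to 142), and the log2 change was 6.50 (SE 0.152, adjusted p = 1.10e-14). CEBPB (chr20:48807367-48809205), the C/EBP factor whose protein has activating and inhibitory forms, rose from 19.4, 19.5 and 17.5 to 132, 120.5 and 134 CPM, a log2 change of 2.79 (SE 0.0758, adjusted p = 6.43e-14). CEBPG (chr19:33864591-33873592), the short C/EBP partner of ATF4, rose from 37.6, 41.0 and 40.6 to 124, 128 and 119 CPM, with a log2 change of 1.65 (SE 0.0654, adjusted p = 6.91e-12). Among the 5 transcription factors ATF3 thus had the largest log2 change in control cells, and ATF4 and CEBPG the smallest.

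The feedback regulators rose too. TRIB3 (chr20:343479-378203), a pseudokinase that restrains ATF4 and CHOP activity, was at 6.11, 5.82 and 6.50 CPM in control libraries with vehicle and at 159, 159 and 169.6 with tunicamycin, a log2 change of 4.73 (SE 0.0819, adjusted p = 4.51e-16). PPP1R15A (chr19:49375469-49379316) rose from 4.25, 5.45 and 6.29 to 50.6, 58.1 and 57.5 CPM, a log2 change of 3.38 (SE 0.120, adjusted p = 1.86e-12). NUPR1 (chr16:28544029-28550329, minus strand), a small chromatin-associated stress protein, had 1, 0 and 3 counts in the control libraries with vehicle and 187, 166 and 214 with tunicamycin. The ratio over the summed counts was 157, with an exact 95% counting interval of 61.1 to 580, since only 4 counts stood behind the untreated level.

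Both effector genes were induced. CHAC1 (chr15:41245160-41248710), the enzyme that cleaves glutathione, went from 6.03, 7.29 and 7.10 to 184, 199 and 175 CPM in control cells, a log2 change of 4.78 (SE 0.0884, adjusted p = 7.02e-16). SESN2 (chr1:28586029-28609002), a leucine-binding inhibitor of mTORC1 signalling, went from 97.6, 102 and 94.8 to 897, 938 and 921 CPM, a log2 change of 3.24 (SE 0.0550, adjusted p = 4.14e-16).

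**Figure D2:**
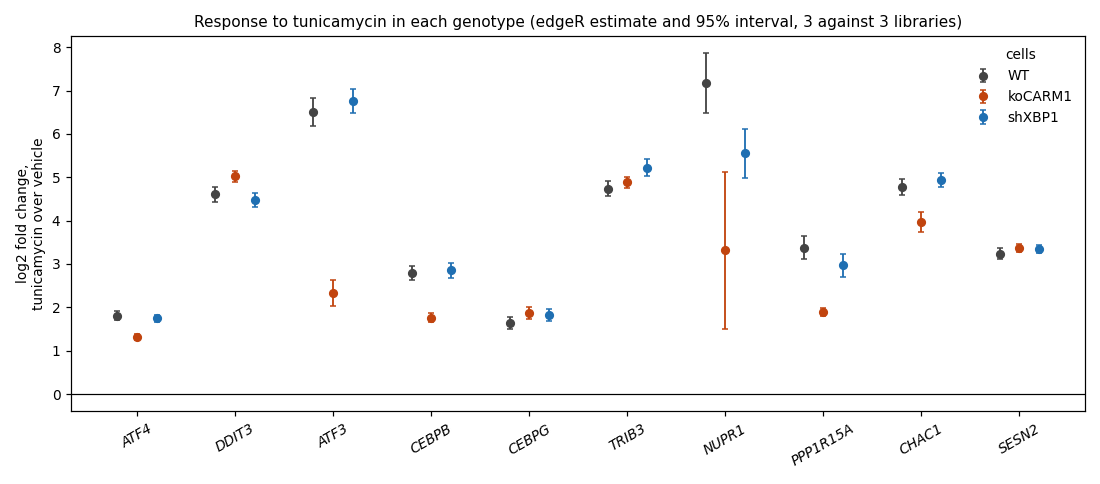
Log2 fold change of tunicamycin over vehicle with its 95% interval for each of the 10 genes in WT, koCARM1 and shXBP1 cells, each from 3 against 3 libraries. All estimates lie above 0, and the knockout estimate is the lowest of the genotypes for ATF4, ATF3, CEBPB, NUPR1, PPP1R15A and CHAC1.

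The genes for eIF2 and its modifiers had smaller median changes than the 10 ATF4 and CHOP genes. Of 18 genes for eIF2, its kinases, phosphatases and exchange factor eIF2B, 10 rose and 2 fell with tunicamycin in control cells, 10 rose and 3 fell in knockout cells, and 8 rose and 3 fell in knockdown cells, with median log2 changes of 0.24, 0.19 and 0.12. Beside this list and those below, 22.0% of all genes were called higher and 19.9% lower in control cells. The shares were 20.6% and 18.8% in knockout cells, and 19.2% and 19.0% in knockdown cells. EIF2AK3, which encodes PERK, rose from 11.1 ± 0.499 to 51.7 ± 5.55 CPM in control cells (log2 change 2.23, SE 0.101, adjusted p = 3.48e-11). DNAJC3, the ER co-chaperone known as p58IPK and as an inhibitor of PERK, rose from 68.3 ± 8.05 to 436 ± 23.0 CPM (log2 change 2.69, SE 0.0765, adjusted p = 1.05e-13). EIF2S2, the beta subunit of eIF2, rose by a log2 change of 0.94 (SE 0.0460, adjusted p = 8.87e-11).

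Downstream, the amino acid and tRNA charging genes known as ATF4 targets moved in 1 direction. Of 29 such genes, 28 rose and 0 fell in control cells, 29 rose in knockout cells, and 28 rose and 0 fell in knockdown cells, with median log2 changes of 1.80, 1.30 and 1.56. SLC7A11, the light chain of the cystine and glutamate exchanger, went from 7.95 ± 0.712 to 255 ± 5.90 CPM in control cells (log2 change 5.02, SE 0.0777, adjusted p = 1.33e-16). ALDH1L2, a mitochondrial folate enzyme, rose by 3.44 (SE 0.0888, adjusted p = 3.27e-14), CTH, which makes cysteine from cystathionine, by 3.03 (SE 0.191, adjusted p = 2.13e-09), and ASNS, the asparagine synthetase, by 2.93 (SE 0.0627, adjusted p = 4.00e-15).

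The stress and cell death outputs of ATF4 and CHOP were less uniform. Of 19 genes tested, 14 rose and 1 fell in control cells, 16 rose and 1 fell in knockout cells, and 15 rose and 1 fell in knockdown cells, with medians of 1.42, 1.10 and 1.43, the last of them 1.21 with genes at 0 counts set to their bound. INHBE, an activin subunit, rose from 0.491 ± 0.353 to 36.1 ± 2.23 CPM in control cells (adjusted p = 1.35e-12), and STC2, a secreted glycoprotein, from 20.8 ± 2.05 to 333 ± 7.88 (adjusted p = 6.46e-16). GDF15, a stress cytokine, rose from 14.2 ± 1.24 to 151 ± 14.6 CPM (log2 change 3.42, SE 0.0908, adjusted p = 4.87e-14). FGF21, a secreted metabolic factor, had 0 counts in all 3 untreated control libraries and 1.13 ± 0.179 CPM with tunicamycin, at least 5.18-fold higher when 3 counts per library are taken as the floor.

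**Figure D3:**
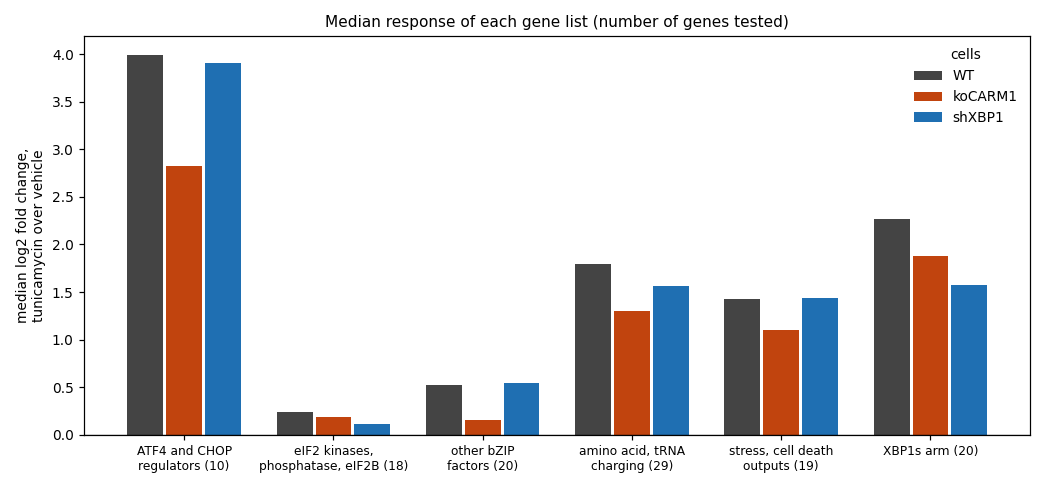
Median log2 fold change of tunicamycin over vehicle in WT, koCARM1 and shXBP1 cells for the 10 ATF4 and CHOP regulators and for the 5 other gene lists, with the number of genes tested in brackets and no error drawn. The bars of the 10 regulators reach 3.99, 2.82 and 3.91, and those of the XBP1s arm 2.27, 1.87 and 1.57.

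Without stress, CARM1 knockout libraries differed from control libraries in 9 of the 10 genes. ATF4, DDIT3, ATF3, CEBPB, TRIB3 and PPP1R15A were higher, CEBPG, CHAC1 and SESN2 were lower, and NUPR1 was not called. Over all genes 37.5% were called higher and 36.9% lower in this comparison, so that the counts of the 10 genes stand beside a background in which most genes were called. Library totals in place of the TMM factors shift the knockout differences by about -0.21 under vehicle and -0.16 under tunicamycin. PPP1R15A and ATF3 had the largest differences from control. PPP1R15A was at 69.3, 77.8 and 70.6 CPM in knockout libraries with vehicle, a 13.6-fold higher mean than control (log2 difference 3.71, SE 0.111, adjusted p = 8.98e-14). These untreated libraries all lay above the treated control libraries. ATF3 was at 3.57, 5.20 and 3.55 CPM, from 31 to 62 counts per library, a log2 difference of 2.77 (SE 0.329, adjusted p = 1.57e-06).

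CEBPB was at 55.5, 55.6 and 60.0 CPM in untreated knockout libraries, 3.03-fold its control mean (log2 difference 1.55, SE 0.0790, adjusted p = 6.16e-11). The master regulator ATF4 differed less, with 548, 556 and 532 CPM and a log2 difference of 0.34 (SE 0.0413, adjusted p = 2.17e-06). DDIT3, at 16.9, 17.0 and 21.1 CPM, differed by 0.54 (SE 0.131, adjusted p = 0.00158), and TRIB3, at 10.1, 10.6 and 10.9 CPM, by 0.73 (SE 0.136, adjusted p = 1.78e-04). On the lower side, SESN2 was at 36.7, 37.1 and 35.6 CPM against 98.1 ± 3.55 in control cells, a log2 difference of -1.47 (SE 0.0610, adjusted p = 4.93e-12). CHAC1 at 3.26, 5.62 and 4.92 CPM differed by -0.62 (SE 0.201, adjusted p = 0.0111), a call that was lost without knockout library 1 (log2 difference -0.41, adjusted p = 0.0755). CEBPG at 31.3, 37.5 and 29.9 CPM differed by -0.31 (SE 0.0891, adjusted p = 0.00499). For NUPR1 only 0, 1 and 1 counts were present in the untreated knockout libraries, and a difference from the 4 counts of control cells was not detectable at this depth.

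Under tunicamycin, knockout libraries were higher than treated control libraries in 4 genes and lower in 5, against 38.4% of all genes called higher and 36.8% lower. These shares lie close to the background in both directions. DDIT3, CEBPB, TRIB3 and PPP1R15A remained on the higher side and CHAC1 and SESN2 on the lower side of control, while the sign of the difference changed for ATF4 and ATF3. DDIT3 reached 558, 575 and 585 CPM in treated knockout libraries, 1.96-fold the treated control mean (log2 difference 0.98, SE 0.0396, adjusted p = 7.71e-12). MARS1, whose 3′ end it overlaps, was at 477 ± 15.1 CPM in the same libraries. TRIB3 reached 298, 297 and 309 CPM, a log2 difference of 0.90 (SE 0.0453, adjusted p = 1.01e-10). PPP1R15A reached 264, 259.7 and 261 CPM, 4.72-fold the treated control mean (log2 difference 2.24, SE 0.0562, adjusted p = 2.69e-14). CEBPB reached 197, 182 and 183 CPM, a log2 difference of 0.55 (SE 0.0531, adjusted p = 2.12e-07).

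NUPR1 differed most from treated control cells. It had 5, 11 and 9 counts in the treated knockout libraries against 187, 166 and 214 in treated control libraries, a ratio of summed counts of 0.0446 (exact 95% counting interval 0.0286 to 0.0666), or a 22.4-fold lower level. Its log2 difference was -4.46 (SE 0.212, adjusted p = 4.83e-11). CHAC1 reached 70.3, 66.7 and 69.8 CPM, a 2.70-fold lower mean than in treated control cells (log2 difference -1.43, SE 0.0570, adjusted p = 6.31e-12). SESN2 reached 377, 360.2 and 365 CPM, a 2.50-fold lower mean (log2 difference -1.32, SE 0.0393, adjusted p = 2.03e-13). ATF3 reached 22.1, 19.8 and 18.9 CPM, a 2.60-fold lower mean (log2 difference -1.37, SE 0.0765, adjusted p = 3.22e-10), although it was higher than control without stress. ATF4 reached 1297, 1324 and 1341 CPM, a log2 difference of -0.13 (SE 0.0390, adjusted p = 0.00653). That call was lost without treated control library 3 (-0.096, adjusted p = 0.0993) and with at least 10 counts required in every library (-0.083, adjusted p = 0.0688). CEBPG, at 115, 116 and 122 CPM, was not called (log2 difference -0.064, 95% interval -0.17 to 0.044), except with library totals alone as scaling (-0.23, adjusted p = 0.000854).

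**Figure D4:**
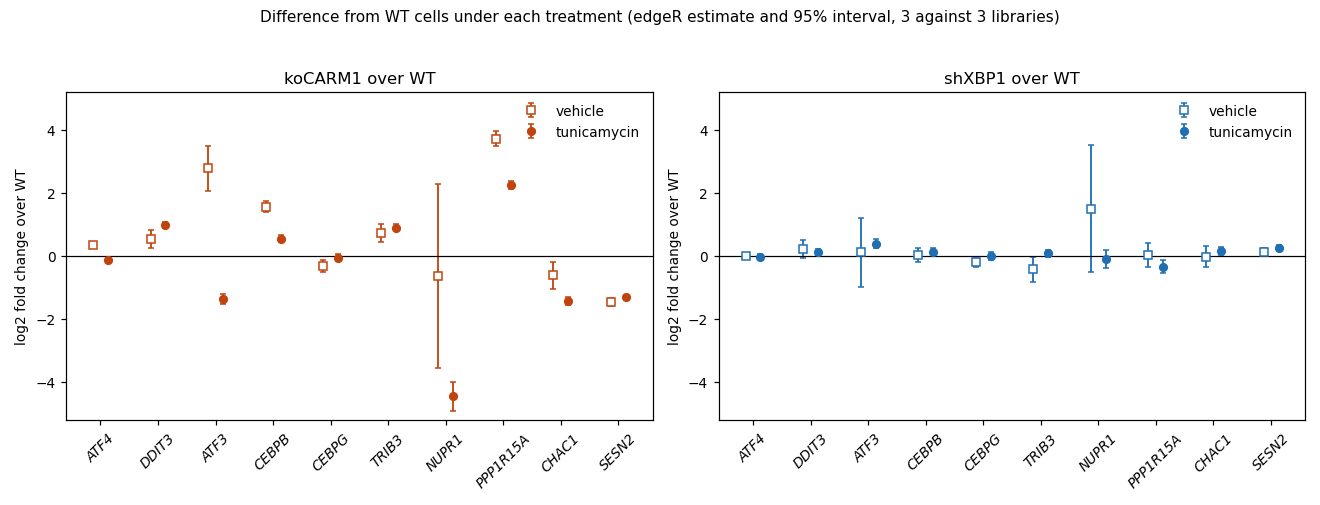
Log2 fold change over WT with its 95% interval for the 10 genes in koCARM1 cells (left) and shXBP1 cells (right), with vehicle as squares and tunicamycin as points, on 1 common scale. Knockout estimates run from -4.46 for NUPR1 under tunicamycin to 3.71 for PPP1R15A under vehicle, and the knockdown estimates under tunicamycin lie between -0.34 and 0.39.

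The size of the tunicamycin response itself was compared between knockout and control cells with an interaction term. The response was smaller in the knockout for 5 genes and larger for 1, while over all genes 12.4% were called lower and 10.5% higher. The median difference of the 10 genes was -0.68, beside -0.014 over all genes. ATF3 rose by 6.50 in control and by 2.33 in knockout cells, a difference of -4.19 (SE 0.266, adjusted p = 6.01e-10). PPP1R15A rose by 3.38 and 1.88 (difference -1.51, SE 0.127, adjusted p = 2.77e-08), and CEBPB by 2.79 and 1.76 (difference -1.05, SE 0.0905, adjusted p = 4.11e-08). All 3 were already higher than control without stress. CHAC1 rose by 4.78 and 3.96 (difference -0.84, SE 0.182, adjusted p = 0.00177), from a lower untreated level. ATF4 rose by 1.81 and 1.31 (difference -0.52, SE 0.0561, adjusted p = 9.97e-07).

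DDIT3 was the gene with the larger response in the knockout, 5.02 against 4.61, a difference of 0.39 (SE 0.117, adjusted p = 0.0187). This call was lost without untreated knockout library 1 (0.34, adjusted p = 0.0745) and without library 2 of the same group (0.34, adjusted p = 0.0652). TRIB3 rose by 4.73 and 4.88, SESN2 by 3.24 and 3.37, and CEBPG by 1.65 and 1.87. The intervals of these differences, -0.10 to 0.36, -0.029 to 0.24 and -0.0023 to 0.41, include 0 and none was called. In alternative edgeR fits CEBPG was called without a filter (0.27, adjusted p = 0.0411) and with at least 10 counts in every library (0.26, adjusted p = 0.0380). It was also called without untreated control library 1 (0.31, adjusted p = 0.0316) or untreated knockout library 2 (0.31, adjusted p = 0.0206). SESN2 was called without untreated control library 3 (0.20, adjusted p = 0.0307). NUPR1, whose ratio of treated to untreated counts was 11.4 in knockout cells (exact 95% counting interval 2.84 to 99.1), had a difference of -3.85 with an interval of -7.07 to -0.63 and was not called by edgeR (adjusted p = 0.0813), whereas DESeq2 called it (-3.78, adjusted p = 0.0204). With single libraries left out the difference ran from -4.94 to -3.26, and edgeR called it without untreated control library 3 (-4.94, adjusted p = 0.0367) and without untreated knockout library 1 (-4.47, adjusted p = 0.0458), 2 of 12 such fits.

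In the knockout the responses of the 5 other gene lists differed from control in both directions, except for the eIF2 list. Over all genes 10.5% had a larger and 12.4% a smaller response. Of the 29 amino acid and tRNA charging genes, the response was smaller for 15 and larger for 5 (median difference -0.20), and of the 20 genes of the XBP1s arm it was smaller for 11 and larger for 4 (median -0.36). SLC7A11 had the largest difference of the amino acid list, -1.55 (SE 0.0918, adjusted p = 2.48e-10), from an untreated level of 74.9 ± 4.36 CPM against 7.95 ± 0.712 in control cells. Of the 20 other bZIP factors, the response was smaller for 9 and larger for 4 (median -0.42). Of the 19 stress and cell death outputs tested, the response was larger for 6 and smaller for 4 (median 0.097). Of the 18 eIF2 genes 0 had a larger and 2 a smaller response (median -0.031), the latter near the share over all genes. The median over all genes was -0.014. ATF5, the close relative of ATF4 that is also translated more under eIF2 phosphorylation, rose from 93.7 ± 3.39 to 413 ± 52.2 CPM in control cells and from 63.3 ± 7.02 to 353 ± 38.0 in knockdown cells. In knockout cells it was at 56.4, 47.3 and 58.4 CPM without and at 52.5, 46.7 and 42.1 with tunicamycin (log2 change -0.16, adjusted p = 0.139), so that its response differed by -2.33 (SE 0.130, adjusted p = 1.36e-10). JUN and FOSL1, subunits of AP-1, had log2 differences of 7.42 and 7.53 from control without stress, with 241 ± 0.659 CPM against 1.35 ± 0.170 for JUN (adjusted p = 3.75e-18) and 256 ± 4.94 against 1.33 ± 0.0707 for FOSL1 (adjusted p = 3.27e-18).

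Because the knockout libraries stood apart, each gene was also set beside the tested genes within 5 Mb of it in GRCh37. Around ATF3, on chromosome 1, the 36 neighbours had a median log2 difference from control of -1.49 without stress, with 25 lower and 9 higher, and -1.17 with tunicamycin. ATF3 itself was at 2.77 and -1.37, with 6 and 20 neighbours above it. For PPP1R15A, on chromosome 19, the medians of 265 neighbours were -0.24 and -0.37, and 15 and 19 of them were above its own 3.71 and 2.24. NUPR1, on chromosome 16, had 157 neighbours with medians of -0.53 and -0.49, and its -4.46 under tunicamycin had 148 of them above it. For SESN2, on chromosome 1, the medians of 154 neighbours were 0.096 and 0.0013, with 139 and 140 of them above the gene. Whether gene dose differs between the cells was not tested.

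**Figure D5:**
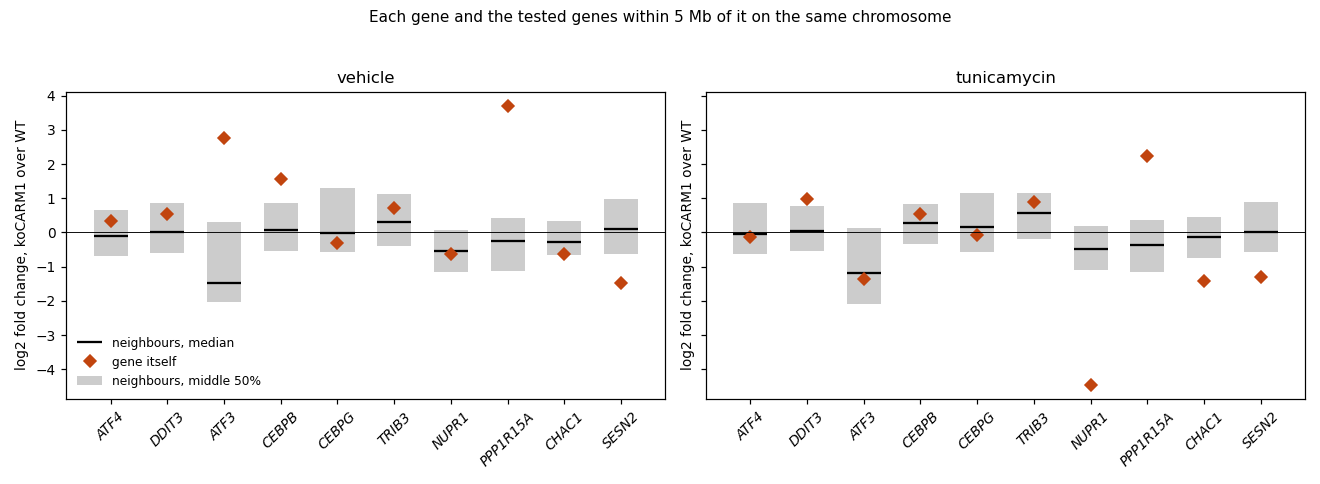
Log2 fold change of koCARM1 over WT under vehicle (left) and tunicamycin (right) for each of the 10 genes (diamond) and for the genes tested within 5 Mb of it, whose middle 50% is the grey box and whose median is the black line. The box of ATF3 is centred below 0 in both panels, at -1.49 and -1.17, and the diamonds of PPP1R15A (3.71 and 2.24) lie above their boxes.

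XBP1 knockdown cells differed from control cells in 0 of the 10 genes without stress and in 3 with tunicamycin. Without stress, edgeR called 0 of them, with 3 at an unadjusted p under 0.05 and 0 called by DESeq2, while 2.07% of all genes were called higher and 3.03% lower. The 3 were TRIB3 at 3.77, 4.33 and 5.62 CPM (log2 difference -0.43, adjusted p = 0.204), CEBPG at 35.5, 33.8 and 34.8 (difference -0.20, adjusted p = 0.137) and SESN2 at 108, 106 and 107 (difference 0.12, adjusted p = 0.247). With all 18 libraries in 1 fit TRIB3 was called (-0.42, adjusted p = 0.0315). ATF4 was at 415, 425 and 427 CPM, with a 95% interval of -0.09 to 0.10 for the log2 difference, and DDIT3 at 13.2, 12.8 and 16.4, with an interval of -0.074 to 0.50. NUPR1 had 3, 5 and 4 counts, and the ratio to control, 2.99, had an exact 95% counting interval of 0.905 to 12.7.

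Under tunicamycin 2 of the 10 genes were higher and 1 was lower in knockdown cells, beside 6.99% of all genes called higher and 8.55% lower. ATF3 reached 70.8, 70.1 and 65.9 CPM, a 1.31-fold higher mean than in treated control libraries (log2 difference 0.39, SE 0.0622, adjusted p = 4.89e-04). SESN2 reached 1034, 1117 and 1121 CPM, a 1.19-fold higher mean (log2 difference 0.25, SE 0.0416, adjusted p = 7.08e-04). In both cases all 3 knockdown libraries lay above all 3 control libraries. PPP1R15A was at 51.1, 39.4 and 39.9 CPM, a log2 difference of -0.34 (SE 0.0956, adjusted p = 0.0228). Here the groups overlapped, since knockdown library 1 lay above control library 1, and the call was lost without control library 2 (adjusted p = 0.0661) or 3 (0.108) and without knockdown library 2 (0.0882) or 3 (0.113).

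The other 7 genes were not called under tunicamycin. ATF4 stood at 1438, 1423 and 1410.0 CPM, with a 95% interval for the log2 difference of -0.11 to 0.053. DDIT3, at 318, 326 and 313 CPM, lay above all treated control libraries with a difference of 0.13 and an interval of 0.033 to 0.22 (adjusted p = 0.0650). CHAC1 stood at 196, 209 and 215 CPM (difference 0.15, adjusted p = 0.0846), and without control library 2 it was called (0.20, adjusted p = 0.0249). CEBPB was at 149.9, 138 and 130.0 CPM, CEBPG at 128, 127 and 115 and TRIB3 at 169, 173 and 173, with intervals of -0.017 to 0.25, -0.12 to 0.12 and -0.028 to 0.18. NUPR1 had 162, 185 and 178 counts, a ratio to treated control cells of 0.917 (exact 95% counting interval 0.813 to 1.03).

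For the response itself, edgeR found a difference between knockdown and control cells in 0 of the 10 genes, with 3 at an unadjusted p under 0.05, while 0.364% of all genes were called higher and 1.67% lower. The median difference of the 10 genes was 0.089, beside 0 over all genes. TRIB3 came nearest, with a response of 5.21 against 4.73 and a difference of 0.49 (SE 0.142, adjusted p = 0.0908). DESeq2 called it (0.49, adjusted p = 0.0478), as did edgeR without a filter (0.52, adjusted p = 0.0193). It was also called by edgeR with all 18 libraries in 1 fit (0.50, adjusted p = 0.0375) and without untreated knockdown library 3 (0.66, adjusted p = 0.016). For ATF4 the interval of the difference was -0.18 to 0.061 and for DDIT3 -0.37 to 0.14, so that differences beyond 0.37 on the log2 scale lie outside both. NUPR1, from 12 untreated and 525 treated counts in knockdown cells, had an interval of -3.12 to -0.10 (adjusted p = 0.332).

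The XBP1s arm, genes of ER folding, transport and degradation known as XBP1 targets, was lower in treated knockdown cells for most of its members. Of its 20 genes all 20 rose with tunicamycin in each genotype, with medians of 2.27 in control and 1.57 in knockdown cells. Under tunicamycin 15 were lower and 0 higher in knockdown than in control cells (median -0.41), beside 8.55% of all genes called lower and 6.99% higher. The response was smaller for 13 of the 20 and larger for 0 (median -0.46), beside 1.67% of all genes with a smaller and 0.364% with a larger response. SEC24D, a COPII coat subunit, reached 45.9 ± 0.972 CPM in treated knockdown and 105 ± 4.22 in treated control cells (log2 difference -1.19, SE 0.0602, adjusted p = 5.43e-09). WFS1, an ER membrane protein, reached 25.0 ± 1.76 and 54.7 ± 2.61 CPM (log2 difference -1.13, SE 0.0785, adjusted p = 9.53e-08). Of the 29 amino acid and tRNA charging genes, 4 were lower and 5 higher in treated knockdown cells (median 0.043), and the response was smaller for 1, ALDH1L2 (-0.67, SE 0.133, adjusted p = 0.00774). In the eIF2 list, DNAJC3 was lower in treated knockdown cells (-0.40, SE 0.0473, adjusted p = 3.17e-05). With 1 gene lower, 1 higher and 16 of the 18 not called, this list lay near the shares over all genes.

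Seen gene by gene, the order of the 6 groups differed among the 10 genes. ATF4, CEBPG and NUPR1 had their highest mean in treated control libraries, ATF3, CHAC1 and SESN2 in treated knockdown libraries, and DDIT3, CEBPB, TRIB3 and PPP1R15A in treated knockout libraries. Treated control and treated knockdown libraries overlapped for ATF4, CEBPB, CEBPG, TRIB3, NUPR1, PPP1R15A and CHAC1, and did not overlap for DDIT3, ATF3 and SESN2. Treated knockout libraries overlapped with neither for 9 genes, CEBPG being the exception. How many of all genes show no such overlap was not counted. Of all genes, 38.4% were called higher and 36.8% lower in treated knockout than in treated control cells. For treated knockdown cells these shares were 6.99% and 8.55%.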

How the data were processed

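The authors prepared 3′ mRNA-seq libraries (Lexogen), read them as 75 nt single reads, aligned them with bowtie2 to hg19 and deposited RSEM expected counts per Ensembl gene (RSEM 1.2.3 per the labels' processing notes), unnormalized whole numbers. The study's methods name a different RSEM version. The labels group the 18 libraries by genotype and treatment but do not say that replicates were separate cultures, so that p-values measure the spread between these libraries. In R 4.3.3, edgeR 4.0.16 was run with filterByExpr (minimum count 10), TMM factors and quasi-likelihood F tests on the compared groups, with Benjamini-Hochberg adjustment over 17317 genes and calls at 0.05. SE was derived from each log2 change and its F statistic. Checks were DESeq2 1.42.0, its size factors, library totals, other filters, 1 fit of 18 libraries, a replicate block, an FDR of 1% and each library left out. The script was tested on simulated data. Replicate pairs differed beyond sampling noise (chi-square per degree of freedom 1.83 to 6.87). The 10 genes and the 5 lists were chosen with earlier results of these data known. Named were the 10 genes, CARM1 and XBP1, up to 4 called genes of largest change per list and comparison, and the 5 genes most like ATF4 and DDIT3. ATF5 in the knockout, overlapping and marker genes were named after their values were seen. The identifier that the annotation pairs with TXNIP, of the stress list, matched no row. Rows under older identifiers were not looked for.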

Additional observations from a re-analysis of the deposited data

Results flagged for a closer look

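The tunicamycin response differed between CARM1 knockout and control cells for 6 of the 10 genes, by edgeR's test of the interaction on 3 libraries in each of 4 groups. Over all genes 10.5% had a larger and 12.4% a smaller response in this comparison. The differences in log2 response, knockout minus control, were -0.52 for ATF4 (SE 0.0561, adjusted p = 9.97e-07), 0.39 for DDIT3 (SE 0.117, adjusted p = 0.0187), -4.19 for ATF3 (SE 0.266, adjusted p = 6.01e-10), -1.05 for CEBPB (SE 0.0905, adjusted p = 4.11e-08), -1.51 for PPP1R15A (SE 0.127, adjusted p = 2.77e-08) and -0.84 for CHAC1 (SE 0.182, adjusted p = 0.00177). The call of DDIT3 was lost at an FDR of 1%, without untreated knockout library 1 (0.34, adjusted p = 0.0745) and without library 2 of that group (0.34, adjusted p = 0.0652). The knockout libraries also differ in the lineage markers PAX8 and KRT7 and, in opposite directions, in COL3A1 and COL1A1. The part of these differences in the responses above was not tested. For the knockdown, 0 of the 10 genes differed in response by the main edgeR fit and 1, TRIB3, by DESeq2, and 3 had an unadjusted p under 0.05 in the main fit. Other edgeR fits also called TRIB3: without a filter (adjusted p = 0.0193), with all 18 libraries in 1 fit (0.0375) and without untreated knockdown library 3 (0.016).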

How the results depend on the processing

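Of 1362 values of the 10 genes under alternatives, 1314 kept their direction and side of the threshold, 20 reversed, 16 gained and 12 lost a call; 660 of them left out 1 library. All calls with tunicamycin against vehicle held in each alternative that gave a value. DESeq2 gave no adjusted p for NUPR1 in the knockout, so that it called 9 genes there. Deviations from group means of same-numbered libraries correlated at -0.051 to 0.045 and those of other pairs at -0.083 to 0.094. No sign of pairing by replicate number was seen, though these values cannot show how the libraries were prepared. With the replicate block the counts of higher and lower genes were unchanged in all 9 comparisons, for example 10 and 0 with tunicamycin in control cells and 1 and 5 in the knockout interaction. For the knockout under tunicamycin, 3 genes in place of 5 were lower with at least 10 counts in every library, where 9 genes were tested. In the knockdown, 1 gene in place of 0 was lower under vehicle in the fit of all 18 libraries, and 0 in place of 1 lower under tunicamycin at an FDR of 1%, with 0 to 1 when single libraries were left out. The count with a larger response in the knockout, 1, became 0 at an FDR of 1%, 2 without a filter, 2 with at least 10 counts in every library, and 0 to 2 without single libraries. The count with a larger response in the knockdown, 0, became 1 without a filter, in the fit of all libraries and with DESeq2, and 0 to 1 without single libraries.

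The reversals lie in values that were not called. With library totals, ATF4 in knockdown against control cells under vehicle was -0.0043, and with at least 10 counts in every library CEBPG in treated knockdown cells was -0.0012. Leaving out single libraries gave ranges, in the knockdown under vehicle, of -0.0033 to 0.029 for ATF4, -0.098 to 0.34 for ATF3, -0.068 to 0.074 for CEBPB, -0.097 to 0.18 for PPP1R15A and -0.12 to 0.043 for CHAC1. Under tunicamycin they were -0.029 to 0.048 for CEBPG and -0.22 to 0.027 for NUPR1, and for the DDIT3 interaction -0.20 to 0.0083. NUPR1 in the knockout under vehicle ranged from -1.15 to 0.53. The cause of these shifts was not tested. Depth limits NUPR1, with 4, 2 and 12 counts over the untreated libraries of control, knockout and knockdown cells.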

Other observations

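Over the 18 libraries, the genes whose log2 CPM was most like that of DDIT3 were EIF2S2 (Pearson's r 0.994), PHGDH (0.994), DNAJC3 (0.990), ASNS (0.989) and SYVN1 (0.987), and those most like ATF4 were ENSG00000117289 (0.995), whose identifier was paired with no symbol, GOT1 (0.992), SYVN1 (0.992), SEL1L (0.991) and PRSS16 (0.990). These values describe libraries that differ by treatment and, for the knockout, also stand apart by genotype, and no test was made of them.

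Of the 20 other bZIP factors, 10 rose and 4 fell with tunicamycin in control cells, beside 22.0% of all genes called higher and 19.9% lower. ATF6, the ER membrane sensor, rose from 38.7 ± 2.97 to 142 ± 3.78 CPM (log2 change 1.89, SE 0.0685, adjusted p = 2.12e-12). JDP2, a repressor of AP-1, rose from 21.0 ± 1.11 to 66.9 ± 2.01 CPM (1.68, SE 0.0767, adjusted p = 3.80e-11). JUNB, an AP-1 subunit, fell from 52.6 ± 3.84 to 14.2 ± 3.03 CPM (-1.88, SE 0.118, adjusted p = 1.92e-09). In treated knockdown cells ATF6 was lower than in treated control cells (-0.43, SE 0.0624, adjusted p = 1.93e-04), with 105 ± 8.67 CPM, while CEBPD, a C/EBP factor, was higher (0.79, SE 0.121, adjusted p = 3.19e-04).

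Among the stress and cell death outputs, GDF15 was at 0.311, 0.0839 and 0.229 CPM in untreated knockout libraries and 19.8, 16.0 and 15.7 with tunicamycin, against 14.2 ± 1.24 and 151 ± 14.6 CPM in control cells. DDIT4, an inhibitor of mTORC1, rose from 3.65 ± 0.691 to 73.0 ± 4.79 CPM in knockout cells (log2 change 4.35, SE 0.108, adjusted p = 1.14e-18), and its response differed from that in control cells by 2.13 (SE 0.135, adjusted p = 6.01e-10). BBC3, which encodes the BH3-only protein PUMA, had a response larger by 2.26 in the knockout (SE 0.117, adjusted p = 4.98e-11), from a lower untreated level of 6.68 ± 0.407 against 43.7 ± 2.32 CPM. HMOX1, the stress-induced heme oxygenase, went the other way, with a log2 change of 1.91 in control cells (adjusted p = 1.17e-10) and -0.48 in knockout cells (adjusted p = 0.0126), a difference of -2.42 (SE 0.177, adjusted p = 4.55e-09). PMAIP1, of the same list, was at 45.7 ± 2.84 CPM in untreated knockout and 0.0469 ± 0.0407 in untreated control cells (log2 difference 9.57, SE 0.233, adjusted p = 7.39e-15). The untreated control libraries held 0, 1 and 1 counts of PMAIP1. Of the 19 genes tested, 7 were higher and 8 lower in the untreated knockout, beside 37.5% and 36.9% of all genes.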
